A study of Homo sapiens with 6 samples.

Results

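The SOX transcription factors were followed in SW480 cells, an established colorectal cancer line, after knockdown of the transcription factor ZEB1 with small interfering RNA (siRNA). The rule named 10 SOX genes (SOX2, SOX4, SOX5, SOX6, SOX8, SOX9, SOX11, SOX12, SOX13 and SOX15), matched by gene name among the 32029 genes of the count tables. Of these 10, 9 had a row and SOX11 was not analysed here, while 8 of the 9 had enough reads to be tested and SOX5 did not. RNA-seq had been done on 3 cultures given a control siRNA (siNC in the labels, siControl here; genotype WT) and on 3 given siRNA against ZEB1 (siZEB1; genotype ZEB1 knockdown), all of the same line and all 48 h after transfection. The number of siRNA sequences used was not given in the sources used here, and with 1 cell line and 1 time point the values describe these cells only.

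SOX proteins carry an HMG box, a domain that sits in the minor groove of a short DNA sequence and bends the DNA, and they usually act together with a partner factor. They are sorted into groups by the similarity of that box. SOX8 and SOX9 are SoxE proteins, SOX4, SOX11 and SOX12 are SoxC, SOX5, SOX6 and SOX13 are SoxD, SOX2 is SoxB1 and SOX15 is SoxG. In the intestine SOX9 is known from the crypt base, where it is needed for Paneth cells, and SOX4 is often high in tumours. ZEB1 is a zinc finger repressor of epithelial genes, which binds the E-box letters CACCTG.

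The coding stretch that opens the HMG box is shown for the 4 SOX genes that changed, to mark where the domain lies. It was located as the longest run of codons with the same translation in all 9 genes, so its likeness follows from that choice. The stretch reads 5′ to 3′ on the coding strand of GENCODE 29 transcripts (GRCh38). Capitals mark bases that differ from SOX9.
SOX9, chr17:72121707-72121736, plus strand, exon 1: aagcggcccatgaacgccttcatggtgtgg
SOX8, chr16:982229-982258, plus strand, exon 1: aagcggcccatgaacgcAttcatggtgtgg
SOX4, chr6:21594712-21594741, plus strand, exon 1: aagcgAcccatgaacgccttcatggtgtgg
SOX12, chr20:326045-326074, plus strand, exon 1: aagAggccGatgaacgcAttcatggtgtgg
Over the 237 coding bases of the whole box, SOX8 was 89.9% identical to SOX9, and SOX4 was 84% identical to SOX12. The box of SOX9 was 73% identical to that of SOX4 and 57% to that of SOX6. The longest run of bases shared by any of the 36 pairs of transcripts was 37 bases, between SOX8 and SOX9 (coding, exon 1 in both; chr16:982302-982338 and chr17:72121780-72121816, both on the plus strand). The SOX4 and SOX12 pair shared 33 bases (coding; chr6:21594777-21594809 and chr20:326110-326142, plus strand). Both runs are shown because they were the longest 2 of the 36.
SOX8 and SOX9: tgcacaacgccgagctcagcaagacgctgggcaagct
SOX4 and SOX12: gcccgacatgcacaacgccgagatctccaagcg
The read length and the treatment of reads that fit several places were not given in the sources used here. Whether reads of one SOX gene were counted for another was not tested.

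The 6 cultures held between 19040636 and 22357633 counted reads, and 14996 genes passed the filter on low counts. Levels below are in CPM, or reads per 1000000 reads of the tested genes in a library, after a TMM factor that corrects for library makeup. A gene was called changed at an adjusted p under 0.05 in edgeR's quasi-likelihood test with Benjamini-Hochberg adjustment over all tested genes. The knockdown itself was visible in each siZEB1 culture. ZEB1 reads numbered 1247, 1276 and 908 under siControl against 136, 132 and 162 under siZEB1 (log2 fold change -2.85). CDH1, the E-cadherin gene that ZEB1 is known to repress, had 39, 54 and 26 reads against 594, 540 and 606. The study calls its samples independent biological replicates, and each is called a culture here. The labels do not say that they came from separate cultures, so the p-values measure the spread between these samples. In RNA from whole cultures, fewer cells with a transcript and less transcript per cell cannot be told apart.

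Of the 8 SOX genes tested, 4 changed: SOX8 and SOX9 fell, and SOX4 and SOX12 rose. Among all tested genes 40.2% were called, 19% as higher and 21.2% as lower with siZEB1, so a count of 4 of 8 was near the background. The median log2 fold change was 0.0067 over the 8 SOX genes and -0.0055 over all tested genes. Within these 8, SOX8 and SOX9 of SoxE fell and SOX4 and SOX12 of SoxC rose. None of the other 4 (SoxB1, SoxD and SoxG) was called by edgeR or DESeq2 or had an unadjusted p under 0.05. A pattern by SOX group was not tested. The siZEB1 and siControl cultures did not overlap in CPM for 6 of the 8 genes, 3 higher and 3 lower, where 49.5% of all tested genes did not overlap. When a fold above 1.5 was asked for as well, SOX8 alone was called, with an unadjusted p under 0.001 (11.2% of tested genes called) or under 0.05 (16.6%).

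**Figure D1:**
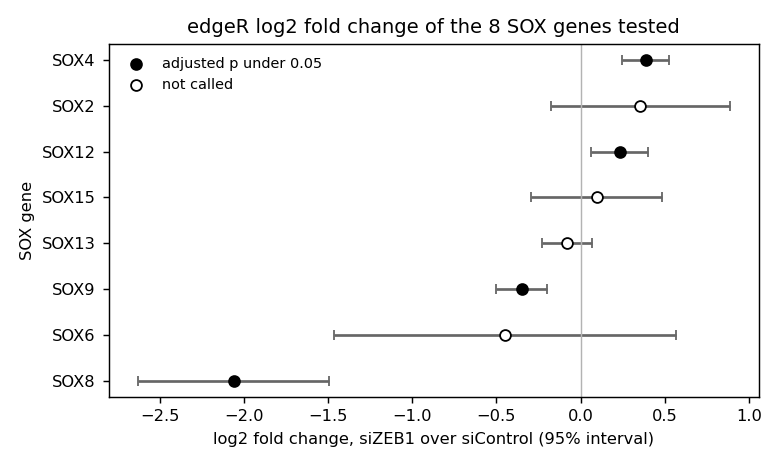
Log2 fold change (siZEB1 over siControl, x axis) of the 8 SOX genes tested (y axis), with bars for the 95% interval of the edgeR fit with 3 cultures per group. Filled points, SOX4, SOX12, SOX9 and SOX8, had an adjusted p under 0.05, and SOX8 lies apart from the others at -2.06.

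SOX8, a SoxE factor of neural crest, glia and testis that can stand in for SOX9 in several tissues, showed the largest change of the 8. It lies at chr16:981808-986979 on the plus strand. Its reads numbered 56, 52 and 58 under siControl against 10, 15 and 11 under siZEB1. Every siZEB1 culture lay under every siControl culture, at 19.95%, 29.4% and 21.6% of the siControl mean. SOX8 fell from 2.65 ± 0.344 to 0.628 ± 0.133 CPM (mean ± SD, n = 3 each), which was -2.06 as a log2 fold change (SE 0.27, 95% interval -2.63 to -1.50, adjusted p = 1.07e-05 by edgeR). Its absolute log2 fold change was larger than that of 99.5% of tested genes, and its siControl CPM was above that of 24.6% of them. SOX8 stayed a low gene, with at most 58 reads in a library, and its log2 fold change ran from -2.25 to -1.95 over 12 alternative analyses.

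SOX9, the SoxE factor of cartilage, testis and intestinal crypts, lies at chr17:72121020-72126420 on the plus strand. It is among the genes that the study itself named as reduced in this knockdown, so its direction is not independent evidence. The siControl cultures had 1511, 1434 and 1197 reads and the siZEB1 cultures 954, 986 and 1015. In CPM these were 71.1, 64.0 and 62.1 against 50.5, 51.3 and 53.0, so the groups did not overlap, and the siZEB1 cultures were the more alike. SOX9 fell from 65.7 ± 4.72 to 51.6 ± 1.28 CPM (n = 3 each), or by 0.35 on the log2 scale (SE 0.071, 95% interval -0.50 to -0.20, adjusted p = 0.000847 by edgeR). This was a mean of 78.5% of the siControl level, against 23.7% for SOX8. There were 4.06 ± 0.682 reads of SOX8 for every 100 of SOX9 with siControl and 1.22 ± 0.264 with siZEB1, a ratio within each library on which the scaling has no effect.

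The study measured SOX9 by qRT-PCR as well, with primers whose sequences are shown because they fix which piece of the transcript that assay read. Both lie in exon 3, in the coding sequence, and neither occurs in a transcript of the other 8 SOX genes. The product spans 85 bases.
SOX9 forward, chr17:72124035-72124053 (GRCh38), plus strand: agcgaacgcacatcaagac
SOX9 reverse, chr17:72124100-72124119 (GRCh38), minus strand: ctgtaggcgatctgttgggg
The read counts used here cover all exons of the gene, and the qRT-PCR values were not used.

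SOX9-AS1, a noncoding gene annotated on the strand opposite SOX9, was counted with 7, 5 and 13 reads under siControl and 14, 18 and 19 under siZEB1. Its annotation shares no exon base with SOX9. The log2 fold change was 1.14 (SE 0.42, adjusted p = 0.0368 by edgeR), opposite in sign to that of SOX9, but the call was lost in 6 of 11 alternative analyses, with an adjusted p of up to 0.167. SOX2-OT, a noncoding gene around SOX2, had at most 4 reads in a library and was not tested.

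SOX4, a SoxC factor with roles in progenitor cells and in tumours, is a single-exon gene at chr6:21592768-21598619 on the plus strand. It gave 1756, 1682 and 1462 reads under siControl against 1922, 1899 and 2009 under siZEB1. These were 82.6, 75.1 and 75.8 CPM against 101.8, 98.8 and 105.0 CPM, with every siZEB1 culture above every siControl culture. SOX4 rose from 77.8 ± 4.12 to 101.8 ± 3.10 CPM (n = 3 each), which was 0.39 as a log2 fold change (SE 0.066, 95% interval 0.25 to 0.53, adjusted p = 0.000156 by edgeR). It was called in each of 12 alternative analyses, with log2 fold changes from 0.36 to 0.43. A stretch of 168 bases, 2.87% of the gene's exon length, lies opposite the antisense gene AL512380.2, and whether the counting used the strand was not given in the sources used here. AL512380.2 itself was counted with 0, 1 and 0 reads under siControl and 0, 0 and 0 under siZEB1.

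SOX12, the other SoxC gene with a row, is also a single-exon gene (chr20:325595-330224, plus strand) and overlaps no other annotated exon. It gave 645, 683 and 664 reads under siControl against 740, 695 and 698 under siZEB1. The siZEB1 cultures lay at 113.8% to 123.4% of the siControl mean and the siControl cultures at 95.5% to 108.5%, so the groups were apart by a small margin. SOX12 rose from 31.8 ± 2.33 to 37.3 ± 1.68 CPM (n = 3 each), which was 0.23 as a log2 fold change (SE 0.079, 95% interval 0.065 to 0.40, adjusted p = 0.0267 by edgeR). This call was lost in 4 of 12 alternatives, 3 of them with a library left out. The adjusted p was 0.0867 without siControl replicate 1, 0.116 without siControl replicate 2 and 0.131 without siZEB1 replicate 1 by edgeR, while the direction held in all 12.

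**Figure D2:**
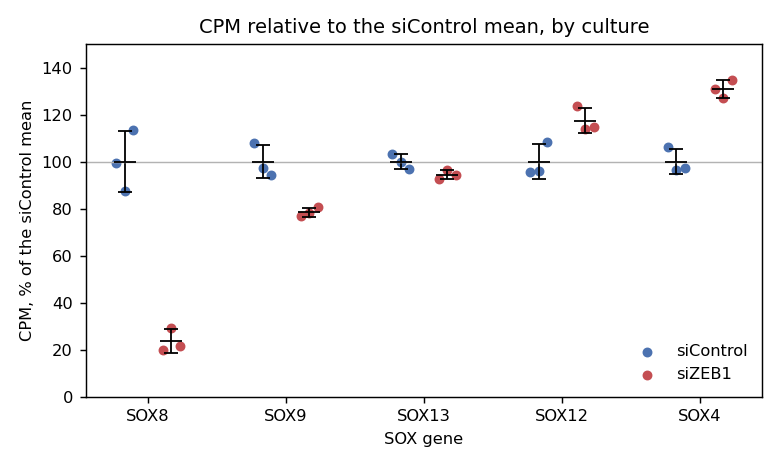
CPM of SOX8, SOX9, SOX13, SOX12 and SOX4 in each culture, as a percentage of the gene's siControl mean (y axis, from 0). Points are cultures, black lines the mean ± SD of 3, and the siZEB1 cultures run from 19.95% to 29.4% for SOX8 and from 126.9% to 134.8% for SOX4.

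The SoxD proteins lack a known activation domain and work in part by dimerizing through a coiled coil. SOX13 (chr1:204073115-204127743, plus strand) gave 908, 922 and 772 reads under siControl against 723, 766 and 745 under siZEB1. All siZEB1 cultures lay under all siControl cultures in CPM, at 92.7% to 96.4% of the siControl mean, but the gap was small. The levels were 41.3 ± 1.33 and 39.0 ± 0.774 CPM (n = 3 each), and the log2 fold change was -0.08 with a 95% interval of -0.23 to 0.067 (adjusted p = 0.379 by edgeR), which leaves room for a fall of up to 0.23 or a small rise.

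SOX6 (chr11:15966449-16739591, minus strand) gave 14, 22 and 5 reads under siControl against 9, 5 and 13 under siZEB1. The groups overlapped, and the siControl cultures alone ran from 0.259 to 0.982 CPM. Its log2 fold change of -0.45 had a 95% interval of -1.47 to 0.57 (adjusted p = 0.490 by edgeR), and it was 0.016 without siControl replicate 2. A stretch of 219 bases, 1.1% of the exon length of SOX6, lies opposite C11orf58, which had 4493 to 5406 reads in a library. Whether reads of C11orf58 were counted for SOX6 was not tested. SOX5 (chr12:23529500-24562544, minus strand) had 0 reads in 5 libraries and 1 read in siZEB1 replicate 3, under the limit of 3 counts that a count of 0 allows, which corresponds to between 0.134 and 0.159 CPM in these libraries.

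SOX2, a pluripotency and neural progenitor factor, lies in a single exon at chr3:181711924-181714436 on the plus strand. It gave 25, 30 and 24 reads under siControl against 27, 35 and 30 under siZEB1. In CPM these were 1.18, 1.34 and 1.24 against 1.43, 1.82 and 1.57. The groups did not overlap, yet at so few reads the log2 fold change of 0.36 had a 95% interval of -0.18 to 0.89 (adjusted p = 0.280 by edgeR). SOX15 (chr17:7588178-7590170, minus strand), the only SoxG gene, is known from placenta and muscle precursors. It gave 54, 67 and 48 reads against 58, 56 and 50, the groups overlapped, and the log2 fold change was 0.10 with a 95% interval of -0.29 to 0.48 (adjusted p = 0.712 by edgeR).

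Levels were compared between genes as CPM divided by the exon length in kilobases (RPKM), since the merged exons ranged from 1541 bases for SOX15 to 19636 for SOX6. With siControl SOX9 stood first at 16.7, followed by SOX4 at 13.3, SOX12 at 6.86, SOX13 at 5.57, SOX15 at 1.74, SOX8 at 0.599, SOX2 at 0.499 and SOX6 at 0.0323. Neighbours in this order did not overlap across the 3 siControl cultures, except SOX8 (0.524 to 0.679) and SOX2 (0.468 to 0.533). With siZEB1 the first pair changed places in RPKM, with SOX4 at 16.9 to 17.9 and SOX9 at 12.8 to 13.5, and SOX2 at 0.569 to 0.724 was above SOX8 at 0.120 to 0.176. The exchange of SOX9 and SOX4 rests on dividing by 3935 and 5852 exon bases, since in CPM SOX4 was above SOX9 in both groups. The exon lengths are those of all annotated transcripts merged, so the level of a gene that uses a part of them is understated.

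**Figure D3:**
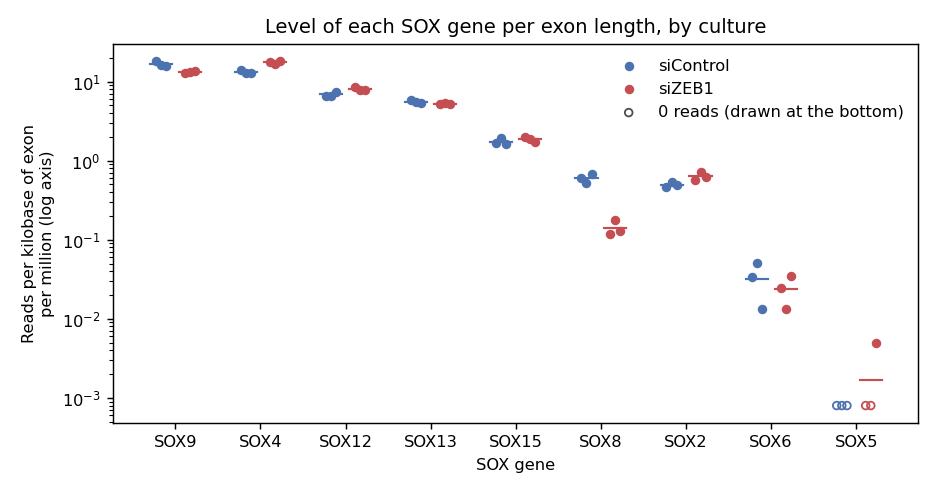
Level of each SOX gene in RPKM (log y axis), by gene in the siControl order, with 1 point per culture and a line at the mean of 3. SOX9 and SOX4 exchange places between the groups on this per-length scale (in CPM SOX4 is above SOX9 in both), and open circles drawn at the bottom mark cultures with 0 reads of SOX5.

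SOX9 made up 36.8% ± 1.35 of the per-length reads of the 9 genes with siControl and 28.2% ± 0.567 with siZEB1 (n = 3 each). The share of SOX4 was 29.4% ± 0.473 and 37.4% ± 0.685, and that of SOX12 was 15.2% ± 1.47 and 17.3% ± 0.760. The sum over the 9 genes was nearly level, at 44.3 to 47.2 RPKM with siControl and 45.9 to 47.0 with siZEB1, with overlapping groups. Shares are tied to one another, so that a rise of one lowers the rest. A measure free of this is the number of SOX4 reads for each SOX9 read, chosen after the values were seen, which was 1.16, 1.17 and 1.22 with siControl and 2.01, 1.93 and 1.98 with siZEB1.

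**Figure D4:**
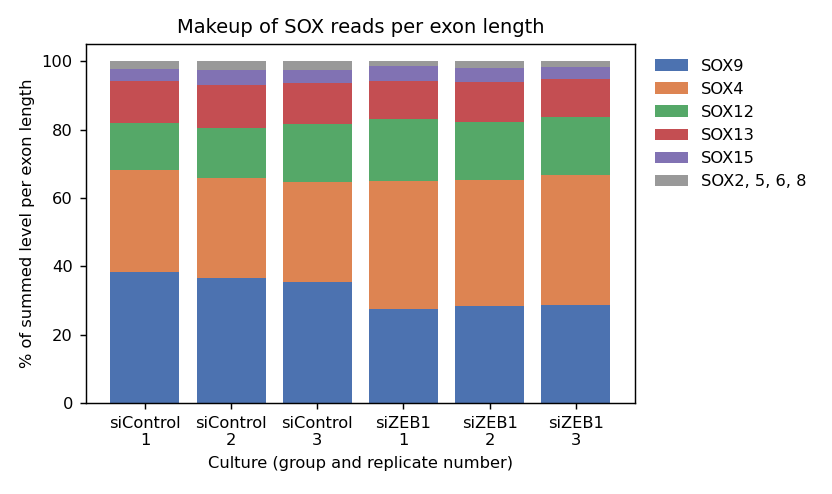
Makeup of the summed SOX level per exon length in each of the 6 cultures (stacked bars, y axis in percent). SOX9 runs from 35.6% to 38.2% with siControl and from 27.6% to 28.7% with siZEB1, whereas SOX4 runs from 28.98% to 29.9% and from 36.8% to 38.1%.

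Of 9 further SOX genes listed, 6 had a row, 3 were tested and 1 was called, where 40.2% of all tested genes were called. SOX18, a SoxF factor of blood and lymph vessels, gave 20, 28 and 28 reads under siControl against 3, 8 and 7 under siZEB1, with no overlap. Its log2 fold change was -1.92 (SE 0.40, 95% interval -2.77 to -1.08, adjusted p = 0.000934 by edgeR). SOX7 had 4, 11 and 17 reads against 15, 13 and 18 and was not called, and 39.4% of its exon bases are shared with PINX1 on the same strand. SOX1 had 19, 16 and 23 reads against 13, 20 and 11 and was not called either. SOX10, SOX21 and SOX30 had at most 7 reads in a library, and SOX3, SOX14 and SOX17 were not analysed here.

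Among 22 tested genes for HMG-box proteins outside the SOX family, 6 rose and 5 fell, with a median log2 fold change of 0.12. For this list and the next, 40.2% of all tested genes were called. HMGB2, a chromatin architecture protein, rose by 0.91, and TCF7L1, a Wnt pathway repressor, by 0.53. TCF7, a Wnt effector, fell by 0.74 and TOX2 by 0.67. Of 8 tested partner factors of SOX proteins 3 rose and 2 fell (median 0.13). The histone deacetylase gene HDAC1 rose by 0.55 and PAX6, a SOX2 partner in the lens, by 0.26. The acetyltransferase gene EP300 fell by 0.59 and SMAD3, a TGF-β effector, by 0.41. The PAX6 call was lost in 5 of 12 alternatives, and the 5 calls of the list became 3 without siControl replicate 2 or siControl replicate 3.

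Of 9 tested genes for enzymes and carriers that act on SOX proteins, 2 rose and 2 fell (median 0.033), where 40.2% of all tested genes were called. SETD7, a lysine methyltransferase, rose by 1.08 and WWP2, a ubiquitin ligase that acts on SOX9, by 0.62. PRKACA, a catalytic subunit of the kinase PKA, fell by 0.71 and CARM1, an arginine methyltransferase, by 0.30. FBXW7, which marks SOX9 for degradation, had a log2 fold change of 0.033 and was not called.

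Target genes known for SOX9 in cartilage or gut were 15 in number, of which 12 had a row and 7 were tested, with 2 called higher and 2 lower (median 0.10). CDX2, an intestinal identity factor that SOX9 is known to repress, stood at 102.5 CPM under siControl and fell to 41.8 CPM, or by 1.30 on the log2 scale. IGFBP4, which binds insulin-like growth factors, rose by 0.66 and BMI1, a Polycomb gene, by 0.60, while PRKCA, protein kinase C alpha, fell by 0.28, a call lost without siControl replicate 2 (adjusted p = 0.0526 by edgeR). The cartilage collagen COL2A1 stood at 4.36 and 4.68 CPM and was not called. Of the 4 target genes of SOX4 and SOX11, 2 fell and 2 were not called (median -0.14). TEAD2, a Hippo pathway factor, fell by 0.79, whereas DICER1, the microRNA processing enzyme, had a log2 fold change of -0.26 that was lost in 5 of 12 alternatives. These shares stand beside the 40.2% of all tested genes that were called.

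**Figure D5:**
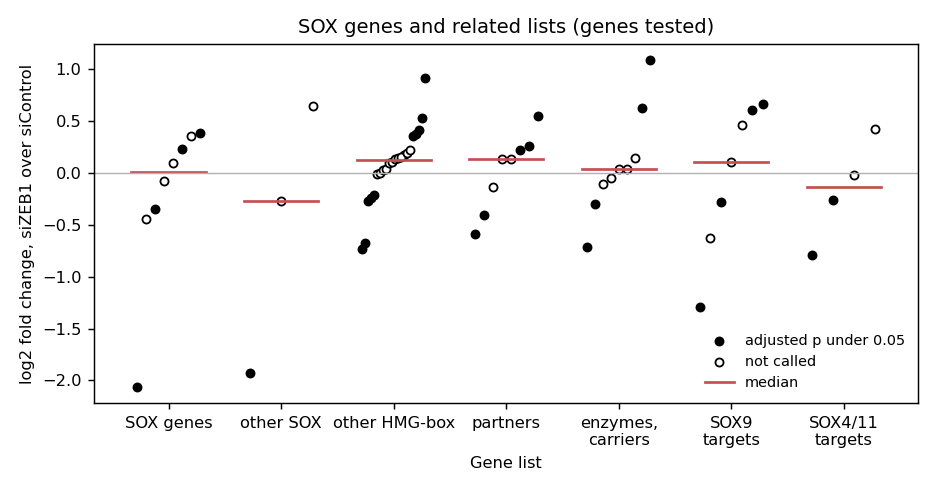
Log2 fold change (siZEB1 over siControl, y axis) of the tested SOX genes and of 6 lists of related genes (x axis), with filled points at an adjusted p under 0.05 and red lines at the median. Each list has points on both sides of 0, and the lowest points are SOX8 at -2.06, SOX18 at -1.92 and CDX2 at -1.30.

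The cells were checked against markers. KRT8 and KRT18 were at 3455 and 1418 CPM with siControl and were not called, and CDX2 was present, while CDH17 averaged at most 0.139 CPM in either group. Of 6 tested colorectal epithelial markers 3 rose and 1 fell (CDX2, also a SOX9 target), where 40.2% of all tested genes were called. EPCAM rose by 3.05 on the log2 scale, VIL1 by 2.34 and KRT19 by 1.62. The part of these marker changes in the SOX differences was not tested. No tested immune (1), endothelial (2) or fibroblast (1) marker was called by edgeR or DESeq2 or had an unadjusted p under 0.05, their lists summing to 0.658 to 1.22, 1.54 to 2.72 and 7.79 to 10.95 CPM over the cultures. The fibroblast sum was nearly all COL1A1, at 10.2 CPM with siControl and 8.70 with siZEB1, and CD14 was at 0.472 and 0.769 CPM. CD3E, CD68, LUM and PDGFRA, the lowest of these markers, averaged at most 0.0868 CPM in either group.

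Promoter windows of 300 bases (250 before to 50 after a transcription start, RefSeq, GRCh38.p14) were on hand for 6 of the 9 genes, SOX2, SOX4, SOX5, SOX6, SOX12 and SOX13, in 10 windows. SOX8, SOX9 and SOX15 had none. The letters CACCTG, searched on both strands and so also as CAGGTG, were found in 0 of the 10, and in 20.6% of the 35116 windows of that length. Of the 10 windows, 5 belong to SOX6, and of the changed genes only SOX4 and SOX12 have a window. The result says only that these letters are not in these windows.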

How the data were processed

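The authors deposited raw read counts per gene for each of 6 SW480 libraries, 3 siControl and 3 siZEB1. The submitters' processing notes name Trimmomatic, HISAT2, SAMtools, featureCounts and hg38, without versions. The annotation and the strand setting were not given in the sources used here. Of 32029 genes listed, 31059 identifiers matched GENCODE 29, which gave coordinates and exon lengths.

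Counts were filtered with filterByExpr by group, scaled by TMM and fitted on group alone with edgeR's quasi-likelihood model, whose two-sided p-values were adjusted by Benjamini-Hochberg over 14996 genes. R 4.3.3, edgeR 4.0.16, limma 3.58.1, DESeq2 1.42.0 and Python 3.11.15 were used. The fit was tested on simulated data. Libraries held 19040636 to 22357633 counts, 3.60% to 4.03% of them mitochondrial. The biological coefficient of variation was 6.58%. Replicates differed by 2.27 to 9.58 times their sampling noise (chi-square over degrees of freedom), so none is a copy of another. The intervals of log2 fold changes are from the edgeR fit and include the spread between libraries, whereas the floor of 3 counts covers counting error only.

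Named genes were all 10 SOX genes, ZEB1 and CDH1, up to 4 called genes of each list with the largest absolute log2 fold change and at least 1 CPM in a group, genes overlapping a SOX exon, and other SOX genes with at least 1 count. KRT8, KRT18, CDH17, COL2A1, FBXW7 and the immune and fibroblast markers were added after their values were seen. PINX1 was named for its exon overlap with SOX7, and no count of PINX1 was used. The SOX genes and the 11 lists were chosen with earlier results of these data known. No set test was run. The alternatives tried were median-of-ratios factors, library size alone, DESeq2, no filter, a filter of 10 counts per library, a block for replicate number, each library left out, and a fold above 1.5 with an unadjusted p under 0.001 or 0.05.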

Additional observations from a re-analysis of the deposited data

How the results depend on the processing

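SOX8 and SOX9 stayed lower and SOX4 higher, each past the threshold, in all 12 refits (3 other normalizations or tests, 2 filters, the replicate block and 6 left-out libraries). With the replicate block, 4968 genes were called against 6035, and the SOX genes called higher went from 2 to 1 (SOX12, adjusted p = 0.0816 by edgeR), the SOX partner factors called from 5 to 3 and the SOX4 and SOX11 targets called from 2 to 1. With each library left out, the SOX genes called higher were 1 to 2, and the SOX6 log2 fold change ran from -0.80 to 0.016, reversed without siControl replicate 2. DESeq2 called 5516 genes and the same number of SOX genes, 4. With a fold above 1.5 and an unadjusted p under 0.001, 1682 genes (11.2%) were called, 678 higher and 1004 lower, and 1 SOX gene, 0 higher and 1 lower (SOX8). With p under 0.05 the numbers were 2483 (16.6%), 1081 higher and 1402 lower, and again 1 SOX gene, 0 higher and 1 lower. The fold threshold by its construction leaves out SOX4, SOX9 and SOX12, whose changes were smaller. MPDU1, which overlaps SOX15 on the opposite strand, was called only without siControl replicate 3 (adjusted p = 0.0385 by edgeR). SOX6, SOX7, SOX18 and SOX9-AS1 dropped out under the filter of 10 counts in every culture.

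Same-numbered siControl and siZEB1 libraries deviated from their group means with correlations of -0.052, -0.088 and -0.20, and no library correlated best with its own number, so the numbers were not taken as pairs. Read number limits the precision of SOX2, SOX6, SOX8 and SOX15, with at most 67 reads in a library, and SOX5 had too few to test. Among the marker lists, 1 endothelial gene was called without siZEB1 replicate 2. The cause of the other differences between settings was not tested.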
